A study of Mus musculus with 13 samples.

Results

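The interleukin 1 (IL-1) family and its receptors were followed through 8 listed genes, namely the ligands Il1a, Il1b, Il18 and Il33, the antagonist Il1rn, and the receptors Il1r1, Il1r2 and Il1rl1. The members were the probe sets annotated to only 1 of these genes, with older synonyms accepted. This gave 9 probe sets for 7 of the 8 genes, out of 20393 probe sets named to 1 gene on an array of 22690. Il1rn had 3 probe sets and each other measured gene had 1, while no probe set was annotated to Il1rl1 alone, so that gene was not analysed here. The cells were mouse primary keratinocytes, the epithelial cells of the epidermis, infected with a retrovirus that carries the DNp63alpha isoform fused to the estrogen receptor domain. p63 is a transcription factor of stratified epithelia, and tamoxifen is a ligand of the estrogen receptor domain. RNA was taken every 20 min up to 240 min after tamoxifen and compared with untreated cells, 1 Affymetrix array per time and 13 arrays in all. The untreated cells carried the fusion too, and neither a time course without tamoxifen nor tamoxifen-treated cells without the fusion was analysed here, so effects of time in culture, of tamoxifen and of the fusion cannot be told apart. The labels do not state if each array had a culture of its own. The p-values therefore reflect scatter among these 13 arrays, and that scatter may be technical.

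IL-1alpha and IL-1beta bind the receptor IL-1R1, which signals through the adaptor MyD88 to NF-kB and MAP kinases. IL-1Ra, the product of Il1rn, occupies the same receptor without signalling, and IL-1R2 is a decoy that binds the ligand but transmits no signal. IL-18 and IL-33 act through related receptors of their own, and the epidermis is known as a store of IL-1alpha, of an intracellular form of IL-1Ra, and of precursors of IL-18 and IL-33.

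All probe sets of the 4 genes that fell most had each array from 80 min below each array up to 60 min, as had 6.73% of all probe sets. The promoter windows of these genes are shown, and their part in the falls was not tested. Each window runs 5′ to 3′ from 250 bases before to 50 bases after an annotated start site, taken from RefSeq on mouse build GRCm38.p6. The Il1a window is chr2:129309923-129310222 on the minus strand, and the first of 3 Il1rn windows is chr2:24336610-24336909 on the plus strand. The Il18 window is chr9:50554450-50554749 and the first of 2 Il33 windows is chr19:29924863-29925162, both on the plus strand. Capitals mark matches to the AP-1 motif TGANTCA.
Il1a: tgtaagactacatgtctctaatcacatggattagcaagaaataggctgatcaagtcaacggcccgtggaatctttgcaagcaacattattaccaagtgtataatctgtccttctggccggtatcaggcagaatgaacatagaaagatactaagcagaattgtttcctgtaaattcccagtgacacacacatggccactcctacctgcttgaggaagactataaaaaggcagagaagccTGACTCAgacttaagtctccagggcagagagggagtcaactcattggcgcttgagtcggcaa
Il1rn: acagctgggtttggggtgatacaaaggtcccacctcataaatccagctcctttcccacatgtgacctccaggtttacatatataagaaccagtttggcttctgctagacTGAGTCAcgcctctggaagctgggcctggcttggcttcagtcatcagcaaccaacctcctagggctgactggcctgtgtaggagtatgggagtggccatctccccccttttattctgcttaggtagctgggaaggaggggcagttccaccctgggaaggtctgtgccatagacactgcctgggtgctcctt
Il18: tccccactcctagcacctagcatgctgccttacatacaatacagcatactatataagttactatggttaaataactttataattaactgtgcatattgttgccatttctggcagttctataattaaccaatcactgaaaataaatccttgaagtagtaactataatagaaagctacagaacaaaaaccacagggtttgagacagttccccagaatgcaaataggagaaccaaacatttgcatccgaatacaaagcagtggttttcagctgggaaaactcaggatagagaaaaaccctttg
Il33: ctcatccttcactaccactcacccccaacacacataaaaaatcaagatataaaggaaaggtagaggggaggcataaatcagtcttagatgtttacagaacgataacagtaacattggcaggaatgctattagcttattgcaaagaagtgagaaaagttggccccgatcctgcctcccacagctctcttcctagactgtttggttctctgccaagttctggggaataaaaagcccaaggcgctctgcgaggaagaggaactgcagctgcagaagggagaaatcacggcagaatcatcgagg

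All 8 genes had a window, 13 in all, searched on both strands. The AP-1 letters stood in 2 of the 13 windows, at base -12 from the start of Il1a and base -141 from the first start of Il1rn, against 7.81% of 32851 promoter windows genome-wide. The NF-kB motif, GGG and CC separated by 5 bases of any kind, was in 4 of the 13 windows, 3 of Il1rn and 1 of Il1r1, against 50.8% of all windows, and 2 of those Il1rn windows overlap and share the match. The EGR motif GCGNGGGCG was in 1 window, the second of Il1r1, against 5.55%, where it does not overlap the NF-kB match. The p53 family half-site was in 0 of the 13, against 8.36% of all windows. A match describes letters only, and the arrays do not measure binding.

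Deposited values were intensities on a linear scale, with array medians of 237.4 to 251.5 and pairwise Spearman correlations of 0.983 to 0.997. Differences below are on log2(intensity + 16), tested with limma and adjusted over all 20393 probe sets at a threshold of 0.05. Keratinocyte markers were bright, with 9 of 10 at or above the 40th percentile of mean level, and Krt14 was the brightest of the 20393. Trp63, the gene that encodes p63, was between 1200 and 1396 in the 9 arrays from 80 min, against 1028 and 1140 in the 4 arrays up to 60 min, although its probe set is not known to separate the fusion from the native transcript. Fewer cells of a type and less RNA per cell cannot be told apart in such samples.

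Along a straight line over the 4 h, 8 of the 9 probe sets fell and 0 rose, while 10.2% of all probe sets fell and 12.2% rose. The probe set that did not pass was that of Il1r2. The median slope of the 9 members was -0.18 log2 units per hour, beside -0.00085 over all probe sets. Of the 9, 5 fell by at least 1.5-fold over the 4 h, namely Il1a, Il18 and the 3 Il1rn probe sets, beside 2.23% of all probe sets. The 3 Il1rn probe sets measure 1 gene, so these counts and the median do not weigh each gene equally. Only 7 of the 9 reached the 40th percentile of mean level, since Il1b was at 39.7 and Il1r2 at 36.1.

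Il1a, which encodes the IL-1 ligand held in the epidermis, fell most. It had a lowest intensity of 1080, a median of 1195 and a highest of 1554 in the 9 arrays from 80 min, against 2271 in untreated cells and 2433, 2323 and 1840 at 20, 40 and 60 min. The ranges did not overlap, and the 60 min array was already the lowest of the first 4. On the log2 scale Il1a averaged 10.29 ± 0.17 from 80 min (SD, n = 9 arrays) and 11.12 ± 0.18 up to 60 min (SD, n = 4 arrays). The line fell by 1.23 ± 0.126 log2 units over 4 h (SE, 95% interval -1.50 to -0.96, adjusted p = 8.42e-05), or 2.35-fold. Its slope ranked 42 from the most negative of the 20393.

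Il18, the gene of a cytokine that is stored as a precursor and drives interferon-gamma production in lymphocytes, fell next most. It was between 414.5 and 548.4 from 80 min, with a median of 501.1, against 702.9 in untreated cells and 748.7, 958.3 and 760.2 at 20, 40 and 60 min. The 40 min array was the highest and the 9 arrays from 80 min all lay below the first 4. The line fell by 0.91 ± 0.157 log2 units (SE, 95% interval -1.24 to -0.58, adjusted p = 0.00079), or 1.88-fold. A line through the first 4 arrays alone had a slope of 0.20 ± 0.157 log2 units per hour (SE, adjusted p = 0.867), which did not pass. Over those 4 arrays 0 of the 9 members passed, beside 0.142% of all probe sets.

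Il33 encodes a nuclear cytokine released from damaged epithelium. Its intensity ran between 563.6 and 792.9 from 80 min, with a median of 622.4, against 832.8 in untreated cells and 997.5, 852.7 and 867.5 at 20, 40 and 60 min. All 9 later arrays were below the first 4, but the course was uneven: it was lowest at 100 min, reached 792.9 at 160 min and was 591.2 at 240 min. The SD over the 100 to 160 min arrays was 0.25 log2 units for Il33, against 0.13 for Il1a. The line fell by 0.58 ± 0.152 log2 units (SE, 95% interval -0.90 to -0.26, adjusted p = 0.0118), or 1.49-fold, and the spline did not pass (adjusted p = 0.0649).

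Il1b, the ligand best known from myeloid cells, was dim. It had a lowest intensity of 164.8, a median of 185.3 and a highest of 194.3 from 80 min, against 202.9, 198.3, 202.5 and 183.3 in untreated cells and at 20, 40 and 60 min. The groups overlapped, with 3 of the 9 later arrays below the lowest of the first 4. Its fall along the line was 1.14-fold (-0.19 ± 0.0652 log2 units, SE, adjusted p = 0.0429). That call was lost without any 1 of the untreated, 20, 40, 120, 140, 160, 180 and 240 min arrays, with adjusted p up to 0.139.

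**Figure D1:**
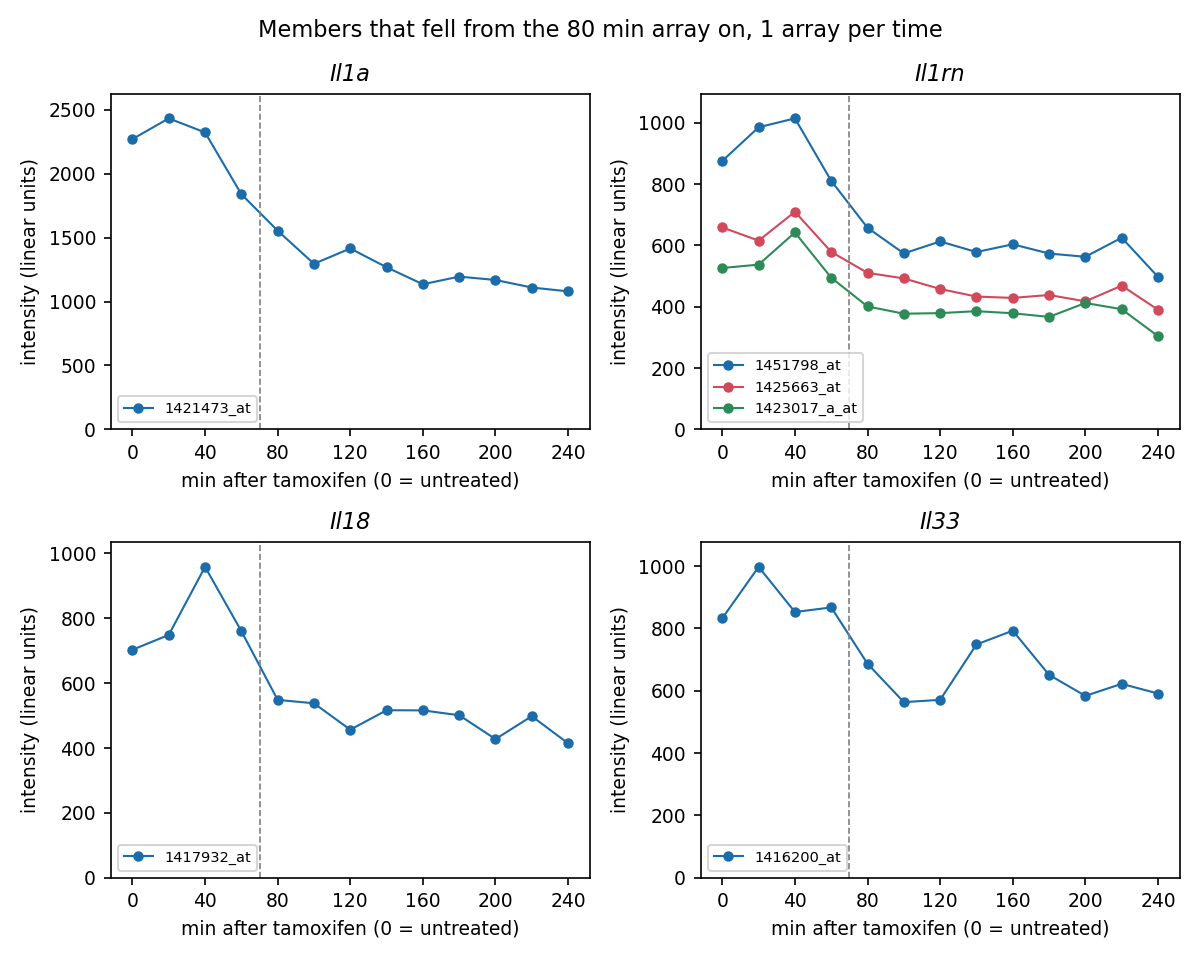
Intensity on a linear scale (vertical axes from 0) by minutes after tamoxifen (horizontal axes, 0 = untreated) for Il1a, the 3 Il1rn probe sets, Il18 and Il33. Each point is 1 array, the dashed line stands between the 60 and 80 min arrays, and in each course the 9 points right of it lie below the 4 points left of it.

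Il1rn, which encodes the receptor antagonist IL-1Ra, fell in all 3 of its probe sets. The brightest, 1451798_at, was between 497.3 and 657.2 from 80 min, with a median of 578.2, against 875.3 in untreated cells and 985.0, 1014 and 810.2 at 20, 40 and 60 min. The second, 1425663_at, was between 390.2 and 510.2 from 80 min, with a median of 438.1, against 658.4, 615.4, 709.4 and 578.6 in untreated cells and at 20, 40 and 60 min. For the third, 1423017_a_at, the range from 80 min was 303.9 to 412.0, with a median of 379.0, against 526.1, 537.2, 642.0 and 494.4 in the first 4 arrays. Each probe set peaked at 40 min, was lowest at 240 min and had no overlap between the groups. The line fell by 0.86 ± 0.139 log2 units in 1451798_at (SE, 95% interval -1.15 to -0.56, adjusted p = 0.000536), or 1.81-fold. The other two fell 1.66-fold and 1.62-fold (adjusted p = 0.000241 and 0.00165), and the 3 courses correlated with each other at Pearson r of 0.937 to 0.961 over the 13 arrays. Which Il1rn transcripts each probe set detects is not stated by any source used here.

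Values at 240 min were also expressed as a share of those in untreated cells. Il1a was at 47.5% of the untreated array, the 3 Il1rn probe sets at 56.8%, 59.3% and 57.8%, Il18 at 59.0% and Il33 at 71.0%. Each share sets 1 array against 1 array and has no error of its own. The intervals of the 4 h change of Il1a (-1.50 to -0.96) and of Il1rn 1451798_at (-1.15 to -0.56) overlap, and the difference between them was not tested.

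In both measured receptors the groups overlapped. Il1r1, the signalling receptor, was between 271.8 and 338.9 from 80 min, with a median of 313.1, against 355.7 in untreated cells and 326.7, 352.0 and 315.5 at 20, 40 and 60 min. In Il1r1, 5 of the 9 later arrays lay below the lowest of the first 4. The fall along the line was 1.17-fold (-0.23 ± 0.0716 log2 units, SE, 95% interval -0.38 to -0.07, adjusted p = 0.0323). It was no longer called without the untreated, 40, 180, 220 or 240 min array, with adjusted p up to 0.138.

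Il1r2, the decoy receptor, was between 145.9 and 198.6 from 80 min, with a median of 169.1, against 170.2, 169.8, 187.5 and 138.3 in untreated cells and at 20, 40 and 60 min. No later array lay below the lowest early one, and the highest 2 arrays, at 100 and 200 min, are not neighbours. The change along the line was -0.07 ± 0.112 log2 units (SE, adjusted p = 0.72), with a 95% interval of -0.31 to 0.16.

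**Figure D2:**
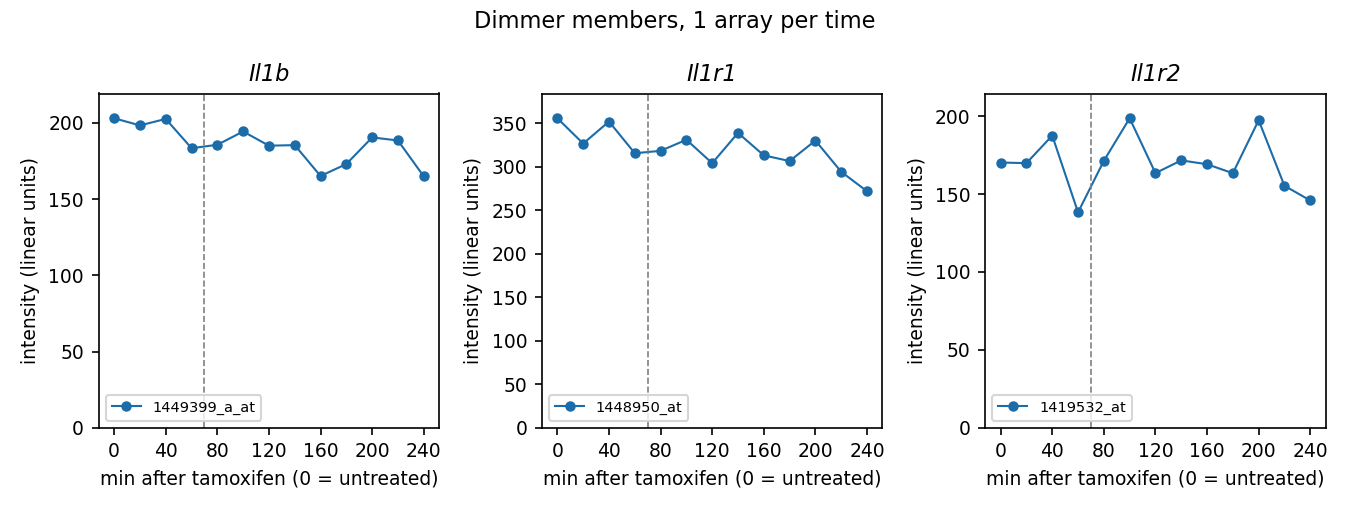
Intensity on a linear scale (vertical axes from 0) by minutes after tamoxifen (horizontal axes, 0 = untreated) for Il1b, Il1r1 and Il1r2, 1 array per point, with the dashed line between the 60 and 80 min arrays. The points right and left of the line overlap in all 3, and Il1r2 shows no trend past the threshold.

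The course was also split between the 60 and 80 min arrays, a boundary known from earlier results of these data. In the comparison of the 9 arrays from 80 min with the 4 up to 60 min, 6 of the 9 probe sets fell and 0 rose, beside 12.4% and 12.7% of all probe sets. The same 6 had all later arrays below all earlier ones and 0 had them above, beside 6.73% and 7.18% of all probe sets. Il1a fell by 0.82 ± 0.0898 log2 units (SE, adjusted p = 7.64e-06), or 1.77-fold, Il18 by 0.67 ± 0.0830, or 1.59-fold, and Il33 by 0.46 ± 0.0847, or 1.37-fold. The Il1rn probe sets fell 1.55-fold, 1.41-fold and 1.44-fold. Differences for Il1b (-0.11 ± 0.0471, SE, adjusted p = 0.105), Il1r1 (-0.11 ± 0.0546, adjusted p = 0.17) and Il1r2 (0.03 ± 0.0758, adjusted p = 0.80) did not pass, and the 95% interval for Il1r2 was -0.13 to 0.20.

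**Figure D3:**
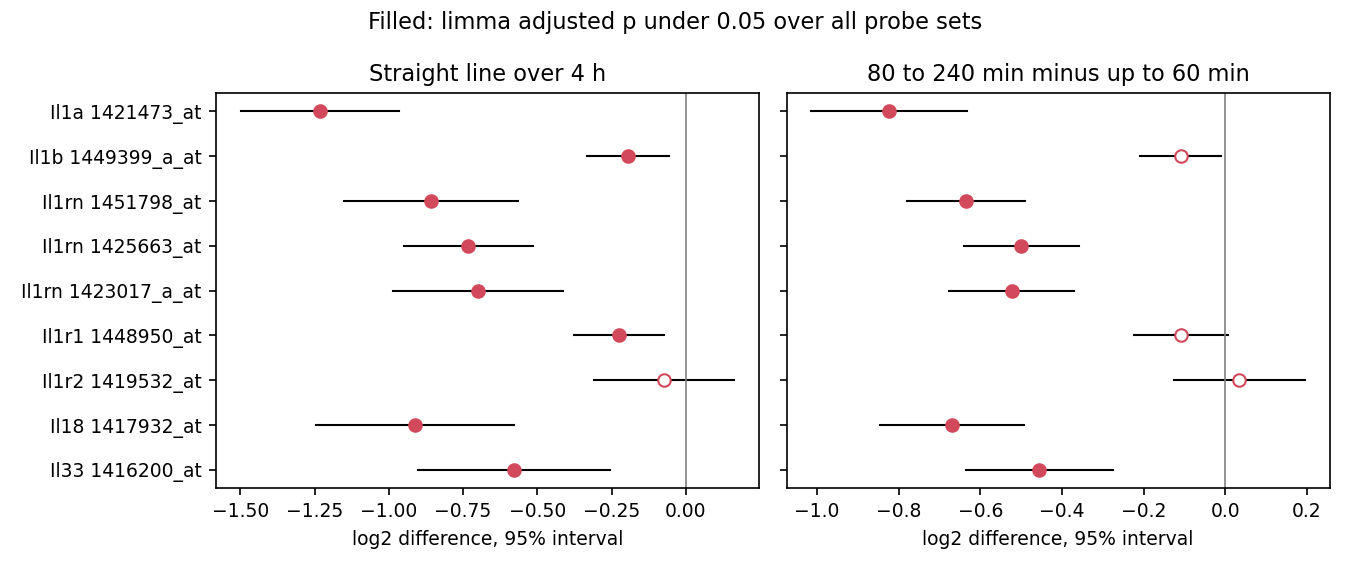
Log2 differences with 95% intervals (horizontal axes) for the 9 member probe sets, for the straight line over 4 h (left) and for the 80 to 240 min arrays minus the arrays up to 60 min (right). Filled points passed an adjusted p of 0.05, and Il1a lies furthest to the left in both panels.

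Among the 9 members, the single break that left the least residual variation was between 60 and 80 min for 6, beside 25.5% of all probe sets. These are the same 6 whose later arrays all lay below the earlier ones at that boundary. Their best break there therefore adds no separate evidence of a step. A step left less residual variation than a line for 5 of these 6, with ratios of 0.472 to 0.919, but more for Il1a, with a ratio of 1.13. The share of all probe sets better described by a step is not given here, so that count cannot be called particular to these genes. With line and step in 1 fit, the step passed for Il1a (-0.44 ± 0.0924, SE, adjusted p = 0.0127), Il1rn 1451798_at (-0.47 ± 0.104, adjusted p = 0.0154) and Il18 (-0.49 ± 0.130, adjusted p = 0.0377), beside 3.29% of all probe sets. The slope left beside the step passed by limma for 0 of the 9 members and 0% of all probe sets, with a lowest adjusted p of 0.133, in Il1a. Unadjusted p was under 0.05 for 3 members, but the share of all probe sets at that unadjusted threshold is not given here.

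When the line was fitted to the later 9 arrays alone (80 to 240 min), 0 of the 9 members passed by limma, beside 0.0147% of all probe sets. All 9 slopes there were negative, as were 45.5% of all slopes. Unadjusted p was under 0.05 for 3 members, namely Il1a (-0.17 ± 0.0308 log2 units per hour, SE, unadjusted p = 0.000138, adjusted p = 0.117), Il18 (-0.11 ± 0.0387, unadjusted p = 0.0183) and Il1rn 1425663_at (-0.097 ± 0.0329, unadjusted p = 0.012). The share of all probe sets at that unadjusted threshold is not given here, so no result is read from this count.

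The 180 to 240 min arrays were also set against the 20 to 80 min arrays, 4 against 4, which leaves out the lone untreated array but puts the 80 min array in the early window. Again 6 of the 9 probe sets fell and 0 rose, beside 5.1% and 6.57% of all probe sets, with all-probe-set totals of 1040 lower and 1340 higher. Centring each array on its median turned those totals to 1400 lower and 901 higher. Il1a fell 1.75-fold (-0.81 ± 0.114, SE, adjusted p = 0.00471), Il18 1.59-fold and Il33 1.37-fold (-0.45 ± 0.118, SE, adjusted p = 0.0238). The Il1rn probe sets fell by 0.59, 0.47 and 0.46 log2 units. The Il33 call was lost without the 20, 40, 60, 200, 220 or 240 min array, and that of Il1rn 1423017_a_at without the 20, 40 or 240 min array. Of the 9 members, 5 passed the spline, namely Il1a (adjusted p = 0.000123), the 3 Il1rn probe sets and Il18, beside 12% of all probe sets.

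In the 20 to 80 min arrays against the 1 untreated array, 0 of the 9 members passed by limma (adjusted p = 0.9997 for each, and 0 with unadjusted p under 0.05), beside 0.0049% of all probe sets. The untreated array was assumed to vary like the others. Differences ran between -0.18 ± 0.181 log2 units for Il1a and 0.07 ± 0.199 for Il18 (SE).

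Over the 13 arrays, which share the boundary at 60 to 80 min, Il1a correlated with Il1rn 1451798_at at Pearson r = 0.957, with Il18 at 0.896 and with Il33 at 0.773. Within the 9 arrays from 80 min these values were 0.618, 0.475 and -0.010. These are descriptions without a test.

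The genes whose courses were most like those of the members were taken as the 3 with the highest Pearson r over the 13 arrays, among probe sets at or above the 40th percentile. They were taken for the 6 genes that passed the line, with Il1rn by its brightest probe set, and not for Il1r2. Il1a was most like Efnb2 (r = 0.984), Wsb1 (0.978) and Klf6 (0.976). Klf6 was between 947.3 and 1431 from 80 min, against 1930 and 2213 as the lowest and highest values up to 60 min. For Il1rn 1451798_at the genes were Tubb2a (0.988), Egr2 (0.985) and Akirin1 (0.979), and Egr2 fell by 2.13 log2 units along the line. Il18 was most like Sprr2i (0.974), Ank (0.973) and Lce3a (0.971). Il33 had the least close matches of the 4, Tmem267 (0.960), Thap12 (0.928) and Nop56 (0.927). The matches of the dimmer Il1b were Atxn7l3b (0.927), Syf2 (0.915) and Nes (0.914), and those of Il1r1 were Pex3, Dnm2 and Pcare (0.909, 0.909 and 0.906).

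Of 13 other ligands and receptors of the family 12 were measured, each by its brightest probe set, of which 4 fell, 0 rose and 8 did not pass along the line, beside 10.2% lower and 12.2% higher among all probe sets. Their median slope was -0.027 log2 units per hour, beside -0.00085 over all probe sets. Il36g, an epidermal ligand that the annotation lists as Il1f9, was at 1679 at 240 min, against 2519 in untreated cells. It fell 1.48-fold along the line (-0.57 ± 0.125, SE, adjusted p = 0.00378). Il36rn, the antagonist of the IL-36 receptor, fell 1.29-fold (adjusted p = 0.0109) and the ligand Il36b 1.21-fold (adjusted p = 0.0339). Il36a went the other way in the step comparison, with 286.4 to 391.7 from 80 min, against 252.6 to 293.2 up to 60 min (0.33 ± 0.0763, SE, adjusted p = 0.00423), while its line did not pass (adjusted p = 0.267).

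Il1rap, the co-receptor shared by IL-1, IL-33 and IL-36, fell 1.20-fold in its brightest probe set (-0.26 ± 0.0786, SE, adjusted p = 0.0256). Its second probe set was at -0.16 (adjusted p = 0.0721) and its dimmest, at percentile 6.29, at -0.18 (adjusted p = 0.0372). Il18r1, the IL-18 receptor chain, was at -0.25 ± 0.110 (SE, adjusted p = 0.12), and Il18bp, the soluble inhibitor of IL-18, at -0.01 ± 0.0516 (adjusted p = 0.96).

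Of 21 genes listed for signal transduction 16 were measured, of which 5 fell and 2 rose, beside 10.2% and 12.2% of all probe sets. All 16 reached the 40th percentile of mean level, while those shares include dimmer probe sets. Larger shares rose and fell when only probe sets at or above that percentile were tested. The shares of all probe sets are therefore not matched to this list by brightness, and no result is read from its counts. Sqstm1, a scaffold that binds TRAF6, was at 1986 to 2605 from 80 min, against 3401 to 4319 up to 60 min, and fell 1.95-fold along the line (adjusted p = 0.0013). Tollip, an adaptor that restrains IL-1 receptor signalling, fell 1.44-fold (adjusted p = 0.00235), and its groups did not overlap (1395 to 1636 from 80 min, against 1946 to 2234). Tab3, a partner of the kinase TAK1, fell 1.49-fold with overlapping groups (adjusted p = 0.0302), and Peli1, a ubiquitin ligase, 1.28-fold (adjusted p = 0.00989). The rises were in Myd88, the adaptor itself (1.20-fold, adjusted p = 0.0241), and Peli2 (1.13-fold, adjusted p = 0.0266). Both were named after their values were seen. The median slope of the list was -0.0071 log2 units per hour, beside -0.00085 over all probe sets.

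For processing and release, 18 of 23 listed genes were measured, with 3 lower and 3 higher, beside 10.2% and 12.2% of all probe sets. Of the 18, 13 reached the 40th percentile, and those shares were not matched to this list by brightness either. The median slope of the list was -0.0064 log2 units per hour, against -0.00085 for all probe sets. Gsdma, a pore-forming gasdermin of the epidermis, fell 1.59-fold (adjusted p = 0.000531), and Cast, the inhibitor of the calpains that cleave IL-1alpha, 1.24-fold (adjusted p = 0.00417). Panx1, a membrane channel, rose 1.36-fold (adjusted p = 0.0028) and S100a13, a protein known to accompany IL-1alpha out of the cell, 1.32-fold (adjusted p = 0.00307). Casp1, the protease that matures IL-1beta and IL-18, was dim at percentile 15.8 and did not pass (-0.02 ± 0.0469, SE, adjusted p = 0.811).

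Of 28 genes listed as induced by IL-1, 26 were measured, of which 7 fell and 2 rose, beside 10.2% and 12.2% of all probe sets. The list had a median slope of -0.016 log2 units per hour, against -0.00085 for all probe sets. Ptgs2, which encodes cyclooxygenase-2, was at 712.2 to 1594 from 80 min, against 2274 to 3175 up to 60 min, and fell 4.05-fold along the line (adjusted p = 0.000128). Cxcl5, a neutrophil chemokine, was at 466.1 to 672.8 from 80 min, against 172.1 to 229.4 up to 60 min, and rose 3.24-fold (adjusted p = 0.00274). Icam1, an adhesion molecule, rose 1.78-fold (adjusted p = 0.00133), while Relb, an NF-kB subunit, fell 1.30-fold (adjusted p = 0.00653). The groups of these 4 genes did not overlap, beside 6.73% of all probe sets wholly lower and 7.18% wholly higher from 80 min. The 4 were named for the largest slopes of the list, which favours such separation. Csf3 was also wholly lower from 80 min (145.4 to 167.6, against 173.7 to 208.5), and the remaining genes of the list had overlapping groups.

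**Figure D4:**
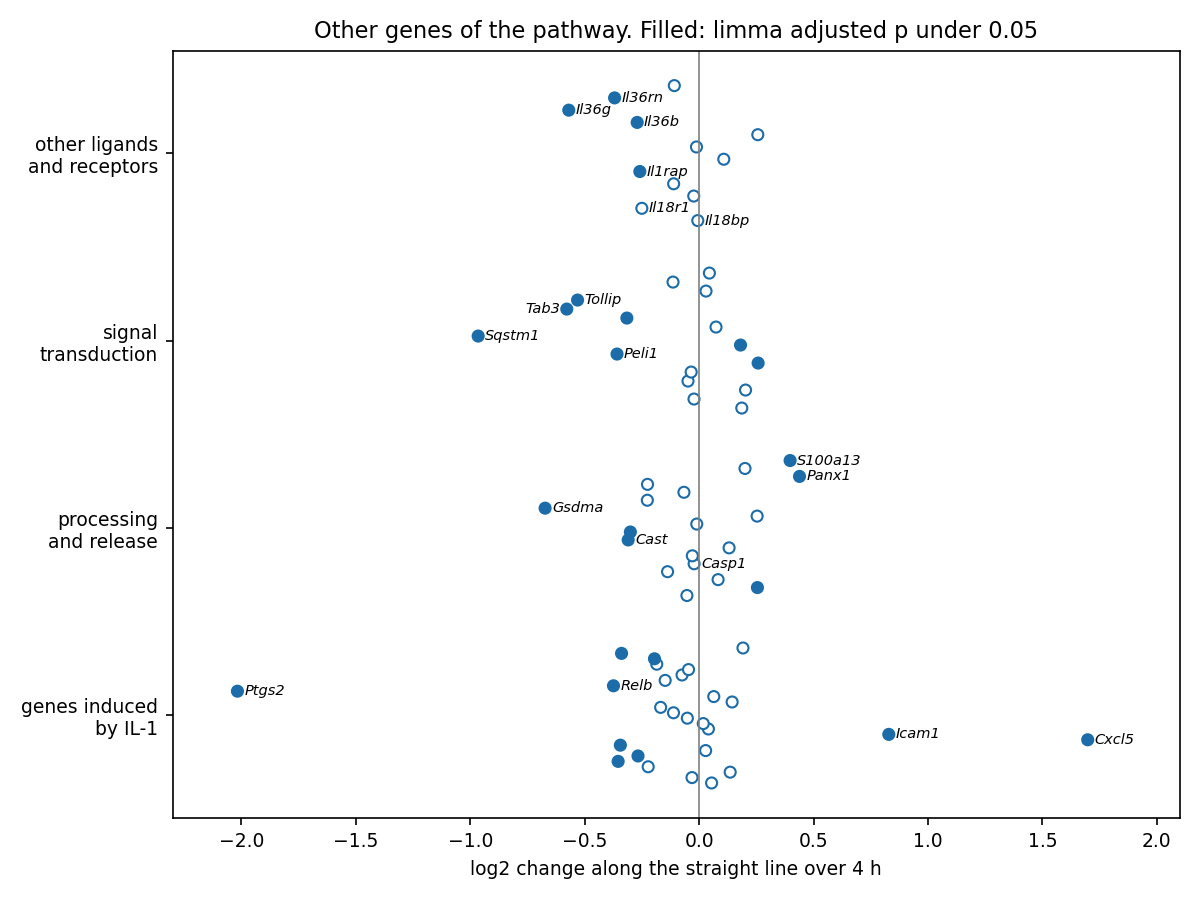
Log2 change along the straight line over 4 h (horizontal axis) for the measured genes of the 4 pathway lists, 1 point per gene, filled where the adjusted p was under 0.05. Named points follow the naming rule plus Il18r1, Il18bp and Casp1, with Ptgs2 at the low end and Cxcl5 at the high end.

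Markers of other cells that carry these genes were mostly dim, apart from those of melanocytes. Of 11 measured immune cell markers 3 reached the 40th percentile, and their summed intensity was 1884 to 2184 from 80 min, against 1998 to 2250 up to 60 min. The dimmest of the 11 was Ptprc, the pan-leukocyte marker CD45, at percentile 1.96 with 68.7 to 78.1 over all arrays. The brightest was Csf1r, at percentile 68.2 with 414.5 to 572.9, and its line did not pass (adjusted p = 0.842). Cd68, a lysosomal protein used as a macrophage marker, was the 1 immune marker that fell along the line, with 322.7 to 407.0 from 80 min, against 422.3 to 534.3 up to 60 min (-0.55 ± 0.105, SE, adjusted p = 0.00151). None of 6 mast cell markers and none of 5 endothelial markers reached the 40th percentile or passed. Of 8 fibroblast markers 3 reached it. Fbln1 rose along the line (0.23 ± 0.0541, SE, adjusted p = 0.00581), but its step did not pass (adjusted p = 0.0782). Col3a1, at percentile 28.3, fell in the step comparison (-0.14 ± 0.0384, SE, adjusted p = 0.0126). All 4 measured melanocyte markers reached the 40th percentile, at 63.0 to 93.9 with a median of 89.6, and none passed. Among 5 suprabasal keratinocyte markers Ivl (-0.53 ± 0.0824, SE, adjusted p = 0.000406) and Flg (-0.23 ± 0.0778, adjusted p = 0.0426) fell along the line, and the others did not pass. In the step comparison Lor rose, with 3942 to 5353 from 80 min, against 3109 to 3640 up to 60 min (0.37 ± 0.0770, SE, adjusted p = 0.00217). Flg did not pass that comparison (adjusted p = 0.512). Among 10 keratinocyte markers Krt5 rose along the line (0.10 ± 0.0302, SE, adjusted p = 0.0195). The part of any of these in the changes of the IL-1 family was not tested.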

How the data were processed

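Total RNA from 13 samples was hybridised as biotinylated cRNA, per the labels' protocols. The authors' deposited table holds 1 intensity per probe set and array on a linear scale. The software and normalization that made it are not given in the sources used here, and no detection calls were used. Probe sets were named from the platform annotation, with 20364 symbols updated through Entrez identifiers, and 691 with several genes and 1606 with none were left out. From the deposited intensities, log2(intensity + 16) was computed without further normalization. limma 3.58.1 in R 4.3.3 fitted each comparison to all 20393 probe sets (eBayes with an intensity trend, two-sided tests, Benjamini-Hochberg adjustment), namely a straight line, a natural spline with 3 degrees of freedom, a step between 60 and 80 min, and a fit with 4 time levels. The fits were tested on simulated data.

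The members, gene lists and place of the step were chosen with earlier results of these data known. Every member probe set was named, with up to 4 genes per list past the line's threshold by slope, each by its brightest probe set, the partners Il1rap, Il18r1, Casp1 and Il18bp, and 3 like genes for each member gene that passed the line or the spline (Il1rn by its brightest probe set). Genes named outside this rule were Il36a, Myd88, Peli2, Csf3, Ptprc, Csf1r, Col3a1, Lor, Krt14 and Trp63. Alternatives changed the pseudocount, normalization, filter, weights and arrays.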

Additional observations from a re-analysis of the deposited data

How the results depend on the processing

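The 6 probe sets of Il1a, Il1rn, Il18 and Il33 kept their line and step calls without any 1 of the 13 arrays. Over the members, 896 of 960 alternative results kept direction and side of the threshold, 39 lost a call, 10 gained one and 15 reversed. The line called 4571 probe sets, 2968 with 1 probe set per gene at or above the 40th percentile, 0 with the step as a block and 3 in the 80 to 240 min arrays alone. In those last 2 settings all 8 member line calls were lost, the second having fewer arrays. The step called 5117, and 3104 with 1 probe set per gene, which tests fewer. The spline called 2452, and 6361 with array weights. Late against early called 2380, 4865 with array weights and 605 without the 200 and 220 min arrays, where Il33 was lost (adjusted p = 0.123). Early against untreated called 1, 0 with the percentile filter (all probe sets or 1 per gene) and 2 with array weights. The array weights stopped short of their convergence tolerance in 1 fit. Where no cause is given, the cause was not tested.

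Leaving out 1 array gave 3114 to 4809 line calls, 1483 to 3612 spline calls, 3581 to 5397 step calls, 870 to 3879 late against early calls and 1 early against untreated call. The late against early count was 870 without the 20 min, 921 without the 40 min, 1163 without the 220 min and 3879 without the 80 min array. Reversals were in Il1r2 and in comparisons with the lone untreated array. Il1r2 turned to -0.014 in the step with array weights. Against the untreated array, it was 0.0031 with quantile normalization, and with array weights Il1rn 1451798_at was 0.085 and 1423017_a_at 0.0043. Without 1 array in turn, Il1r2 ran between -0.037 and 0.0027 per hour along the line, -0.044 and 0.090 in the step, and -0.091 and 0.044 late against early. For 20 to 80 min against untreated the ranges were -0.12 to 0.089 for Il1rn 1451798_at, -0.15 to 0.074 for 1423017_a_at, -0.089 to 0.044 for Il1r2, -0.050 to 0.21 for Il18 and -0.060 to 0.12 for Il33. Il33 passed the spline with 2 degrees of freedom (adjusted p = 0.0273), array weights (0.00951), 1 probe set per gene (0.0478), and without the untreated, 60, 100 or 160 min array. Il1b passed the step with quantile normalization (adjusted p = 0.0495) and array weights (0.0178), and late against early with array weights (0.0444). No paired analysis was possible because each time has 1 array and the labels give no replicate numbers. No background level was measured, so how far the dimmer Il1b and Il1r2 stand above it is unknown.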
